A study of Drosophila melanogaster with 15 samples.

Results

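The genes described here are the chemosensory receptor genes of *Drosophila melanogaster*, taken as Orco together with every gene whose FlyBase symbol is Or, Ir or Gr followed by a number and a lower-case letter. The rule found 186 genes among the 17453 gene identifiers in the count files, of which 60 were odorant receptor (Or) genes with Orco, 66 were ionotropic receptor (Ir) genes and 60 were gustatory receptor (Gr) genes. Levels in these heads were low: 26 of the 186 genes had no count in any library, and 97, those 26 included, had at most 3 counts in every library. Of the 26, 8 overlap another gene on the same strand, so their reads may have been left out as ambiguous.

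As background, Or proteins are odour-gated channels of the antenna and the maxillary palp, and each works with the common co-receptor Orco in the cilia of an olfactory neuron. Ir proteins derive from ionotropic glutamate receptors and serve smell, taste, temperature and humidity sensing together with the co-receptors Ir8a, Ir25a, Ir76b and Ir93a. Gr proteins serve sweet and bitter taste in the mouthparts and legs, and a pair of them senses carbon dioxide in the antenna. A given receptor is usually made by few neurons, so its RNA is dilute in a whole head, and in bulk RNA fewer cells of a type and less RNA per cell cannot be told apart.

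The libraries were made from polyA RNA of about 100 heads of naive males of 5 days of age per replicate. The strains lacked cystathionine-β-synthase (CBS, gene Cbs), cystathionine-γ-lyase (CSE, gene Cth) or both, the enzymes of the transsulfuration pathway that produce hydrogen sulfide. There were 2 libraries of CBS-/-(5), 3 of CBS-/-(8), 3 of the double deletion CBS-/-CSE-/-(1), 2 of the double deletion CBS-/-CSE-/-(2), 3 of CSE-/- and 2 of the control strain 58492. The control carries an Act5C-Cas9 transgene and mutations of yellow, white and DNAlig4, and the deletion strains, made by CRISPR/Cas9, also carry yellow and white mutations. Each number in brackets names a separate strain of the same genotype. The question asked of the receptor genes is whether their levels or their detection differed between these 6 strains.

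The counted reads ranged from 6850445 to 21144213 per library, so that 3 counts, the floor used below, corresponded to 0.142 to 0.438 CPM (counts scaled by the total of counted reads in the library). The deleted genes matched the labels, with 3 to 55 Cbs counts in the 10 libraries lacking CBS against 867 to 1649 in the other 5, and 10 to 25 Cth counts in the 8 libraries lacking CSE against 233 to 489 in the other 7. Libraries of the same strain differed in what they held. The summed level of 10 antennal support genes (Obp83a, lush, Snmp1 and others), odorant-binding and other proteins of the antenna, ranged 15.0-fold from 58.8 CPM in control replicate 1 to 883 CPM in control replicate 3. Obp83a (mean 124 CPM), Obp28a (76.4 CPM) and Obp83b (45.1 CPM) were its largest parts, and its genes did not all move alike. Snmp1 averaged 19.8 CPM in CBS-/-(5) and 21.6 CPM in the control, whereas Obp83a averaged 1.91 and 201 CPM. The summed level of 30 midgut digestive genes ranged from 238 to 40929 CPM with both CBS-/-(5) libraries lowest, at 672 and 238 CPM.

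A small number of receptor genes supplied most of the receptor RNA. The 5 most abundant genes held 53.9% of the summed mean CPM of all 186, the 10 most abundant 67.4% and the 20 most abundant 79.5%, while the median gene averaged 0.0738 CPM. Orco (FBgn0037324, 3R, 5407183 to 5412406, minus strand) was the most abundant, with a lowest, median and highest level of 13.04, 37.9 and 80.02 CPM over the 15 libraries. It was followed by Or63a (FBgn0035382, 3L, 2961534 to 2963788, plus strand), a receptor known from the larval olfactory organ, with 3.79, 10.2 and 19.2 CPM. The co-receptors Ir25a (3.28, 9.33 and 15.2 CPM) and Ir76b (3.21, 7.65 and 13.01 CPM) came next, then Ir76a, Ir75a, the bitter receptor Gr66a, Ir62a, Ir75b and Ir8a. Coordinates are those of the BDGP6 (dm6) annotation.

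Per kilobase of exon, which allows levels to be compared between genes, the order began with Orco at 19.9 ± 10.6 CPM per kb (SD over 15 libraries) and Or63a at 6.16 ± 2.56 CPM per kb. Or63a was below Orco in 12 of the 15 libraries. Ir76b (3.40 CPM per kb), Ir76a (3.11), Ir75a (3.01), Ir25a (2.71) and Gr66a (2.44) followed with SDs of 0.657 to 1.69 CPM per kb, and each was below the gene before it in 8 to 11 of the 15 libraries, so that these neighbours did not separate beyond their spread.

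**Figure D1:**
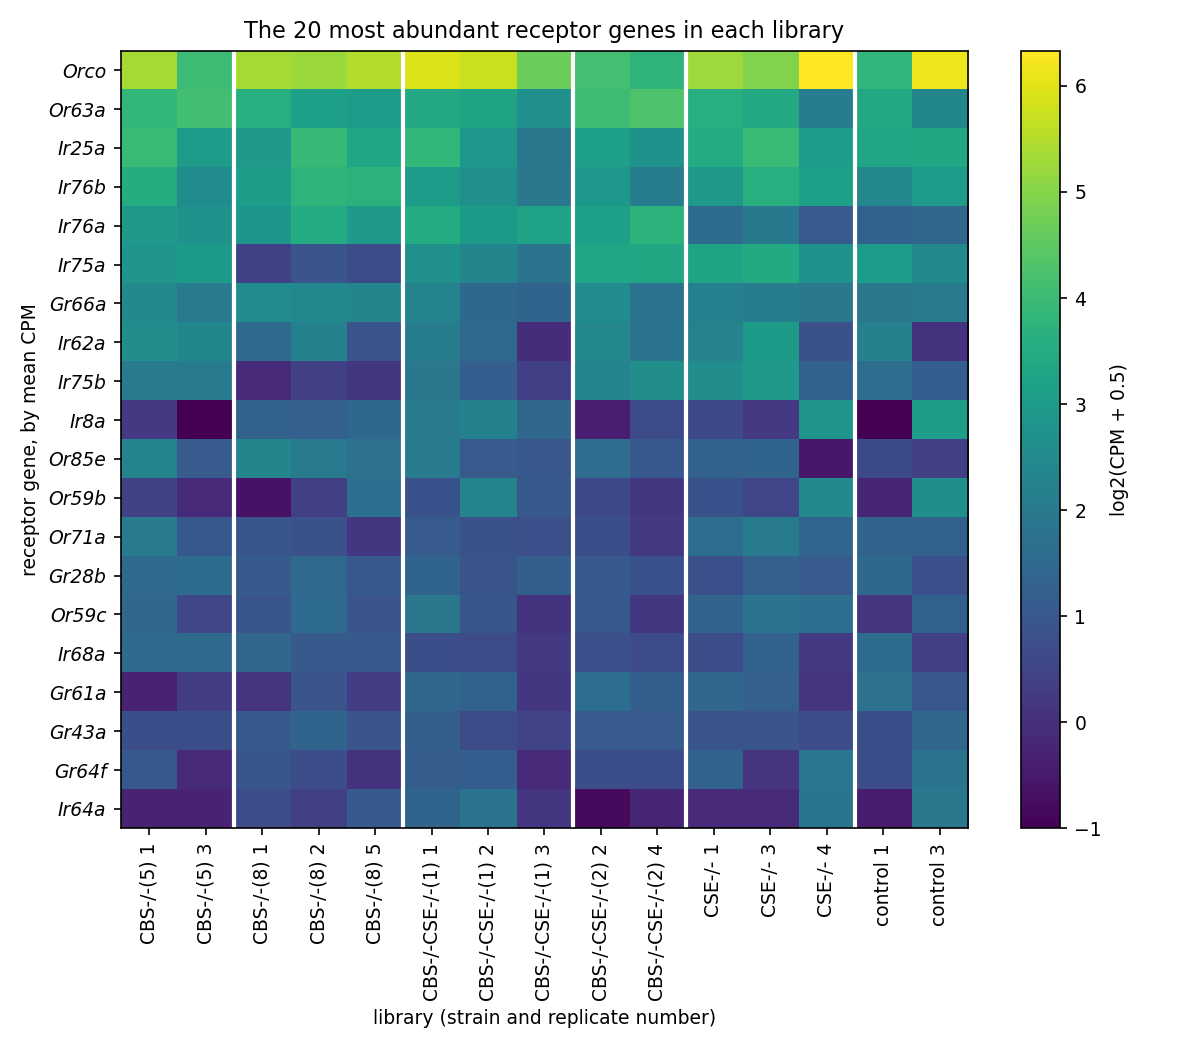
Levels of the 20 most abundant receptor genes (rows, by mean CPM) in the 15 libraries (columns, grouped by strain, control at the right), as log2(CPM + 0.5). Orco was the brightest row, Ir76a was darker in the 3 CSE-/- and 2 control libraries than in the other 10, and Ir75a and Ir75b were dark in all 3 CBS-/-(8) libraries.

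Detection depended on depth. With more than 3 counts in every library of the strain taken as detected, 31 receptor genes were detected in CBS-/-(5), 29 in CBS-/-(8), 35 in CBS-/-CSE-/-(1), 42 in CBS-/-CSE-/-(2), 38 in CSE-/- and 23 in the control. After the libraries were thinned to 6850445 counts each, the numbers were 26, 24, 22, 22 and 22 in the deletion strains in that order and 20 in the control. Thinning removed more genes from both double deletion strains and CSE-/-, whose libraries were all deeper, than from the other strains, and the thinned numbers lay within 6 genes of each other. The number of libraries per strain differs, which also sets how many genes can pass in every library. Only 14 receptor genes exceeded 3 counts in all 15 libraries, and 7 reached 10 counts in all of them.

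Single libraries of a strain differed as much as strains did. Control replicate 1 had 28 receptor genes above 3 counts and control replicate 3 had 48, although replicate 3 was the shallower library, with 7316556 counted reads against 8336766. At equal depth CSE-/- replicate 4 had the most, 49, and control replicate 1 the fewest, 26.

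**Figure D2:**
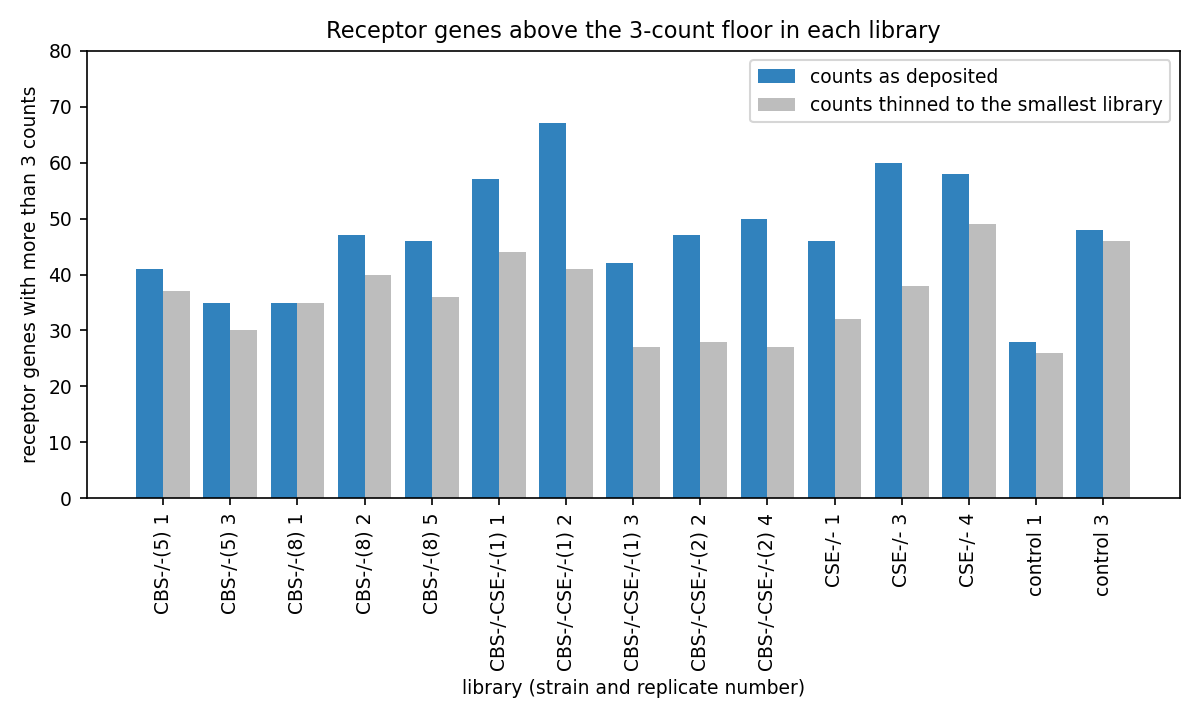
Number of receptor genes with more than 3 counts in each library (bars), in the counts as deposited and after thinning to 6850445 counts. Before thinning the numbers ran from 28 to 67 and after it from 26 to 49, with the control libraries near both ends of the thinned range.

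By family, summed Or RNA averaged 60.1 ± 20.5 CPM in CBS-/-(5) (SD, n = 2), 69.4 ± 3.54 in CBS-/-(8) (n = 3), 76.3 ± 29.0 in CBS-/-CSE-/-(1) (n = 3), 43.0 ± 1.95 in CBS-/-CSE-/-(2) (n = 2), 83.7 ± 33.3 in CSE-/- (n = 3) and 71.6 ± 52.2 in the control (n = 2), where the libraries gave 34.7 and 109 CPM. Each deletion strain lay within the range of the 2 control libraries on average. Summed Ir RNA averaged 53.1, 48.3, 44.0, 52.1 and 54.4 CPM in the deletion strains in the same order and 43.0 CPM in the control, with SDs of 0.406 to 17.1 CPM. Summed Gr RNA averaged 16.96, 19.6, 15.4, 16.8 and 19.3 CPM in the deletion strains and 17.6 CPM in the control, with SDs of 1.72 to 4.96 CPM.

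With all libraries kept, no co-receptor that was tested passed in a deletion strain against the control, and in CBS-/-(5) Orco, Ir25a and Ir76b were tested but Ir8a and Ir93a were not. Orco had 40.3 and 15.9 CPM in CBS-/-(5), 40.1, 36.7 and 44.3 in CBS-/-(8), 61.2, 52.8 and 25.4 in CBS-/-CSE-/-(1), 17.2 and 13.04 in CBS-/-CSE-/-(2), 37.9, 30.2 and 80.02 in CSE-/-, and 13.6 and 70.1 in the control. The 2 control libraries spanned nearly the whole range, and the deletion strains lay inside it except for CBS-/-CSE-/-(2) replicate 4 and CSE-/- replicate 4. Its log2 fold changes against the control ran from -1.57 in CBS-/-CSE-/-(2) (SE 0.74) to 0.04 in CBS-/-CSE-/-(1) (SE 0.63). With CBS-/-(5) replicate 1 left out, the log2 fold change was -1.86 for Orco and -8.32 for Ir8a, and -3.07 for Ir8a without replicate 3. Ir8a did not pass the filter with both CBS-/-(5) libraries kept. It entered these fits through control replicate 3, so its lower level there was largely set by the filter. Ir8a, the co-receptor of acid-sensing antennal neurons, was 0 in control replicate 1 and 8.20 CPM in control replicate 3, and 0 in CBS-/-(5) replicate 3. Ir25a and Ir76b, which also serve taste neurons, were steadier, with 9.36 and 10.1 CPM and with 4.798 and 7.65 CPM in the control libraries.

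Ir93a, which works with Ir25a in cooling and humidity sensing, had at most 3 counts in every library of a strain in the control alone. It had 9 and 13 counts in CBS-/-(5), 7, 12 and 4 in CBS-/-(8), 15, 13 and 2 in CBS-/-CSE-/-(1), 17 and 25 in CBS-/-CSE-/-(2), 18, 24 and 4 in CSE-/-, and 0 and 1 in the control. By count the control libraries were the lowest of the 15, but CBS-/-CSE-/-(1) replicate 3 was also under the 3-count floor. Its 2 counts in 14626426 reads and the 1 count in 7316556 reads of control replicate 3 gave nearly the same CPM. The gene was tested in 3 of the 6 comparisons, with adjusted p = 0.0867 in CBS-/-CSE-/-(2) and 0.411 in CSE-/- against the control (edgeR). It passed in CBS-/-CSE-/-(2) with no low-count filter (adjusted p = 0.0376) and in CSE-/- without replicate 4 (adjusted p = 0.0309), against a control with 1 count in all.

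Receptors of the maxillary palp followed Orco and Or63a among the Or genes, with Or85e, Or71a and Or59c at 1.61, 1.25 and 1.25 CPM per kb. Or85e had 4.36 and 1.64 CPM in CBS-/-(5), 4.53, 3.60 and 2.93 in CBS-/-(8), 3.54, 1.66 and 1.504 in CBS-/-CSE-/-(1), 2.56 and 1.54 in CBS-/-CSE-/-(2), 1.91, 2.05 and 0.194 in CSE-/-, and 1.08 and 0.820 in the control. Both control libraries were below all 10 libraries lacking CBS. No comparison passed the test as designed, the nearest being CBS-/-(8) against the control (log2 fold change 1.58, SE 0.49, adjusted p = 0.0901), which passed with no low-count filter (adjusted p = 0.0407). Or71a and Or59c, also of the palp, had medians of 1.53 and 1.51 CPM over the 15 libraries and were not called anywhere.

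Antennal Or genes covered a similar range. Or59b, a basiconic receptor for short esters, had a lowest, median and highest level of 0.146, 1.05 and 5.74 CPM, the lowest in CBS-/-(8) replicate 1 and the highest in control replicate 3. Or47b, a trichoid receptor for fly odours that promote male courtship, had 0, 0.146 and 4.38 CPM, the highest in CSE-/- replicate 4. It was at 0 counts in 1 library each of CBS-/-(5), CBS-/-CSE-/-(2), CSE-/- and the control, and reached 20 counts in the other control library. Or67d, the receptor for the male pheromone cis-vaccenyl acetate, stayed at 0 to 0.517 CPM, that is at most 10 counts in any library, and its levels cannot be compared between strains at this depth. The carbon dioxide receptor subunits Gr63a (median 0.683 CPM) and Gr21a (median 0.120 CPM) were near the floor as well.

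By mean CPM, Gr genes were led by Gr66a, a subunit of the bitter receptors, with 2.05, 3.68 and 5.44 CPM as its lowest, median and highest level. The sugar receptors Gr43a, a fructose sensor that is also made in the brain, Gr64f, a partner of other sugar receptors, and Gr61a, a glucose receptor, had medians of 1.39, 1.20 and 1.503 CPM. Gr28b, known for warmth sensing, had a median of 1.65 CPM and ranged from 1.23 to 2.51 CPM. Ir68a, a receptor of moist-sensing neurons, had 0.681, 1.24 and 2.52 CPM. Ir62a, from a clade of Ir genes made in taste neurons, had 0.479, 3.71 and 7.53 CPM, the lowest in CBS-/-CSE-/-(1) replicate 3 and the highest in CSE-/- replicate 3.

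Apart from Ir93a, 4 low-count genes had at most 3 counts in each library of at least 1 strain and at least 10 in each library of another. Ir51b had 10 and 12 counts in CBS-/-(5) against 3 and 1 in the control, Ir100a had 12 and 15 in CBS-/-CSE-/-(2) against 0, 3 and 3 in CBS-/-(8), Or47a had 21, 32 and 11 in CBS-/-CSE-/-(1) against 2 and 1 in CBS-/-(5), and Or49b had 10, 16 and 14 in CSE-/- against 0 and 2 in the control. Or49b also had at most 3 counts in each CBS-/-(8) library. Depth differed between these libraries, by up to 21144213 against 9155672 counted reads for Or47a, and none of these genes was called with all libraries kept.

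The summed lists of antennal Or genes, Orco and Ir8a rose and fell between libraries with the antennal support genes, and Or63a ran against them, also within strains. Over the 15 libraries, the log2 summed level of 21 antennal basiconic Or genes was correlated with that of the support genes (Pearson r = 0.865, Spearman rho = 0.857, permutation adjusted p = 0.00024 and 0.000533), as was that of 13 trichoid and intermediate Or genes (r = 0.801, rho = 0.832, permutation adjusted p = 0.000853 and 0.0008). Orco gave r = 0.806 and rho = 0.818 (permutation adjusted p = 0.00064 and 0.00117) and Ir8a gave r = 0.879 and rho = 0.890 (permutation adjusted p = 0.00024 and 0.00032). Or63a gave r = -0.862 and rho = -0.868 (permutation adjusted p = 0.00024 and 0.000533): the 2 libraries richest in antennal support RNA, control replicate 3 and CSE-/- replicate 4, had its lowest levels, 4.65 and 3.79 CPM, and CBS-/-CSE-/-(2) replicates 2 and 4, among the 4 poorest, had 15.7 and 19.2 CPM. The poorest library, control replicate 1, did not follow this order and had 10.2 CPM, the median of the 15. Without the 2 libraries farthest from the median support level, CSE-/- replicate 4 and control replicate 3, r was 0.801, 0.693, 0.715, 0.812 and -0.795 in the same order of genes. With the strain means subtracted it was 0.835, 0.686, 0.727, 0.825 and -0.838. Single genes of the Or lists did not all move with their sum. Among the 4 most abundant of each list, Or59b and Or22b were highest in control replicate 3, and Or47b and Or65a in CSE-/- replicate 4. Or43b, Or85f and Or13a were instead lowest in control replicate 3, at 0.137, 0.273 and 0.137 CPM. Or13a was highest in control replicate 1 and Or43a in CBS-/-(8) replicate 1.

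The sum of 12 larva-enriched Or genes (r = -0.877, rho = -0.836, permutation adjusted p = 0.00024 and 0.000896) was mostly Or63a itself, which held 73.6% to 97.7% of it. A list of 23 taste Ir genes gave r = -0.614 (permutation adjusted p = 0.0369) and rho = -0.518 (permutation adjusted p = 0.0993). The remaining genes and lists showed no relation that passed in these libraries, all with permutation adjusted p between 0.0686 and 0.984. Antennal receptors were among them: Ir76a (r = -0.196, rho = -0.114), Ir75a (r = -0.423, rho = -0.568) and the antennal Ir genes as a list (r = -0.372, rho = -0.332). The others were maxillary palp Or genes (r = 0.0537, rho = 0.0857), sweet receptors (r = 0.089, rho = 0.182), bitter receptors (r = -0.121, rho = 0.00714), Ir25a (r = -0.131, rho = -0.0357), Ir76b (r = 0.243, rho = 0.354) and Gr66a (r = -0.293, rho = -0.189). These 16 relations were chosen after the data were seen, and libraries of 1 strain share their flies' genotype. All values are shares of the same library total, so a gene can move when others change.

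**Figure D3:**
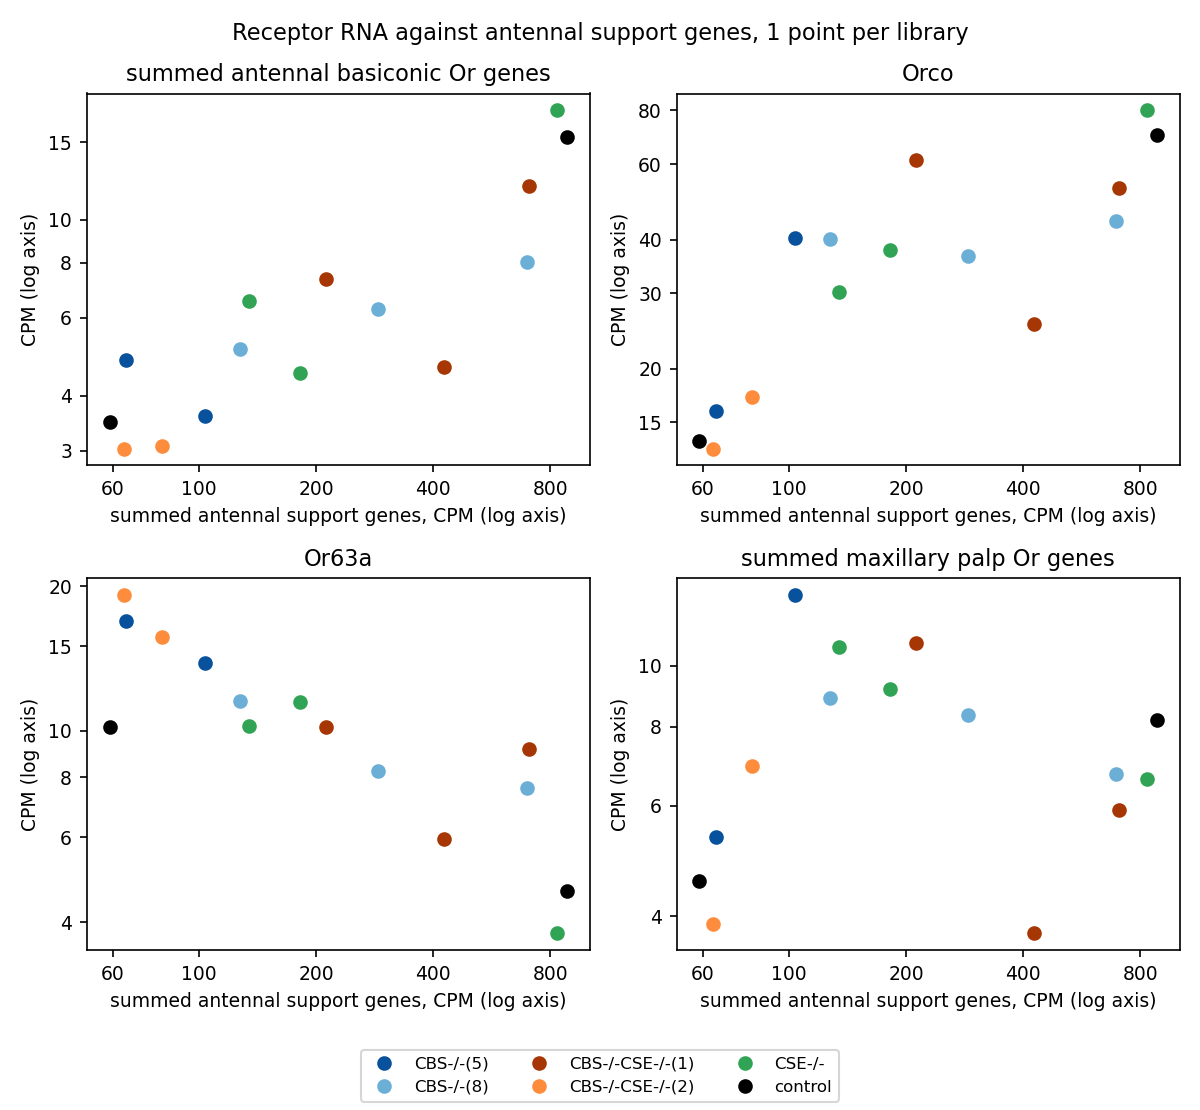
Levels of 4 receptor measures (CPM, log axis) against the summed level of 10 antennal support genes (CPM, log axis), with 1 point per library coloured by strain. The summed basiconic Or genes and Orco were higher and Or63a lower in libraries rich in antennal support RNA, the summed palp Or genes were not ordered by it, and the 2 control libraries lay at opposite ends at 58.8 and 883 CPM.

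Counted over the family, few receptor genes were called, and most could not be tested because their counts were too low. In CBS-/-(5) against the control, 17 of the 186 passed the low-count filter and none was called, against 9.34% of all 9206 genes tested. At an unadjusted p under 0.05 there were 2 (edgeR), beside 2763 of the 9206. DESeq2 called none of 132, beside 987 lower and 304 higher of 13088 genes. In CBS-/-(8), 24 were tested, 2 fell and 1 rose, against 6.44% of 9307 genes. In CBS-/-CSE-/-(1), 32 were tested and 1 rose, against 4.18% of 9400 genes, and in CBS-/-CSE-/-(2), 22 were tested and 1 rose, against 3.45% of 9384 genes. In CSE-/-, 35 were tested and none was called, against 0.778% of 9386 genes. At an unadjusted p under 0.05 there were 2 (edgeR), beside 666 of the 9386. DESeq2 called none of 142, beside 114 lower and 42 higher of 13611 genes. The median log2 fold change of the receptor genes tested was -0.02, -0.32, -0.20, -0.04 and 0.00 in these comparisons, beside 0.03, 0.04, 0.02, 0.00 and 0.01 over all genes tested. The sign of these medians differed with the control library kept: they were -0.38, -0.50, -0.58, -0.45 and -0.21 without control replicate 1, and 0.08, 0.26, 0.81, 0.37 and 0.76 without control replicate 3. More receptor genes passed the filter in each of these fits, so the medians are over different sets of genes. Without control replicate 1, some genes entered only through control replicate 3, where they were high, so the negative medians were partly set by the filter.

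Ir76a was the receptor gene that differed with the CBS genotype. It encodes an amine receptor of antennal coeloconic neurons, where it works with Ir25a and Ir76b, and it lies at 3L, 19799278 to 19803427, plus strand (FBgn0260874). It had 7.19 and 6.23 CPM in CBS-/-(5), 6.72, 10.9 and 7.27 in CBS-/-(8), 10.95, 7.47 and 8.82 in CBS-/-CSE-/-(1), 8.32 and 12.7 in CBS-/-CSE-/-(2), 2.52, 3.44 and 1.65 in CSE-/-, and 1.92 and 2.19 in the control. All 10 libraries lacking CBS, with 6.23 to 12.7 CPM, were above all 5 others, with 1.65 to 3.44 CPM, and scaling by TMM left the groups apart. Of 9578 genes with at least 10 counts in at least 5 libraries, 0.752% were likewise higher without overlap, and Ir76a was the only one among the 30 receptor genes in that set, while none of the 30 was lower without overlap, as 0.856% of the 9578 were.

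Tested strain by strain, Ir76a rose in CBS-/-(8) (log2 fold change 1.61, SE 0.37, adjusted p = 0.0236), in CBS-/-CSE-/-(1) (2.15, SE 0.33, adjusted p = 0.0143) and in CBS-/-CSE-/-(2) (2.34, SE 0.39, adjusted p = 0.0402) against the control (edgeR quasi-likelihood test). In CBS-/-(5) its log2 fold change was 1.31 (SE 0.31) with adjusted p = 0.0571, which did not pass, although it passed with at least 10 counts required in every library (0.0403) and with the legacy setting of edgeR off (0.0498). The difference between CBS-/-(8) and CBS-/-(5) was 0.36 (SE 0.27, adjusted p = 0.946). In CSE-/- it was 0.06 (SE 0.44, adjusted p = 0.988). The 4 strains share the same 2 control libraries, and the call was lost without control replicate 1 in CBS-/-(8) (adjusted p = 0.149), CBS-/-CSE-/-(1) (0.104) and CBS-/-CSE-/-(2) (0.135), without control replicate 3 in CBS-/-(8) (0.116) and CBS-/-CSE-/-(2) (0.110), and without CBS-/-(8) replicate 2 (0.0514), with log2 fold changes of 1.40 to 2.55. The gene overlaps CG14102 on the opposite strand, which averaged 0.897 to 2.57 CPM per strain and was not called in any strain against the control, and the part of such overlapping reads in the result was not tested. SREBP, 299 bp from Ir76a on the same strand, averaged 106 CPM in the control, 161 in CSE-/- and 131 to 211 in the strains lacking CBS. It was not called in any strain against the control, and its part in the result was not tested either.

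The tandem neighbours Ir75a and Ir75b, antennal receptors for short-chain acids, were low in a single strain. They lie 152 bp apart on the minus strand of 3L (Ir75a, FBgn0036757, 17815570 to 17817921, and Ir75b, FBgn0261402, 17818073 to 17820193). Ir75a had 6.64 and 7.43 CPM in CBS-/-(5), 0.876, 1.39 and 1.08 in CBS-/-(8), 5.86, 4.54 and 3.01 in CBS-/-CSE-/-(1), 9.43 and 10.1 in CBS-/-CSE-/-(2), 9.26, 10.7 and 6.32 in CSE-/-, and 7.68 and 5.06 in the control. Ir75b had 3.60 and 3.60 CPM in CBS-/-(5), 0.438, 0.813 and 0.651 in CBS-/-(8), 3.28, 1.80 and 0.820 in CBS-/-CSE-/-(1), 4.32 and 5.67 in CBS-/-CSE-/-(2), 5.58, 7.29 and 1.94 in CSE-/-, and 2.64 and 1.78 in the control. For both genes the 3 CBS-/-(8) libraries were the lowest of all 15, although for Ir75b the highest of them (0.813 CPM) nearly met CBS-/-CSE-/-(1) replicate 3 (0.820 CPM).

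In CBS-/-(8) against the control, Ir75a fell (log2 fold change -2.86, SE 0.38, adjusted p = 0.00123) and so did Ir75b (-2.14, SE 0.48, adjusted p = 0.0211). Against the other strain of the same genotype, CBS-/-(5), the differences were -2.57 for Ir75a (SE 0.32, adjusted p = 0.00305) and -2.41 for Ir75b (SE 0.38, adjusted p = 0.00922). In that direct comparison of CBS-/-(8) with CBS-/-(5), 2 of 25 receptor genes tested were called, against 3.86% of all 9418 genes. Ir75a passed with each library left out in turn, whereas Ir75b against the control did not pass without control replicate 1 (adjusted p = 0.151), control replicate 3 (0.113) or CBS-/-(8) replicate 5 (0.0573) or with DESeq2 (0.0684), and against CBS-/-(5) it did not pass without CBS-/-(5) replicate 1 (0.0684) or replicate 3 (0.0655). The genes are paralogs, so reads shared between them could be split or dropped by the counting. The third gene of the cluster, Ir75c, had at most 3 counts in any library, and the flanking gene Cln3, 1451 bp from Ir75a, was lower in CBS-/-(8) (-1.14, adjusted p = 0.0277). Cln3 did not share the pattern of a single low strain: it averaged 19.8 CPM in CBS-/-(5), 17.4 in CBS-/-(8), 15.7 in CBS-/-CSE-/-(1) and 29.3 in the control, with log2 fold changes of -0.97 in CBS-/-(5) (adjusted p = 0.0519) and -0.90 in CBS-/-CSE-/-(1) (adjusted p = 0.0773, edgeR).

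**Figure D4:**
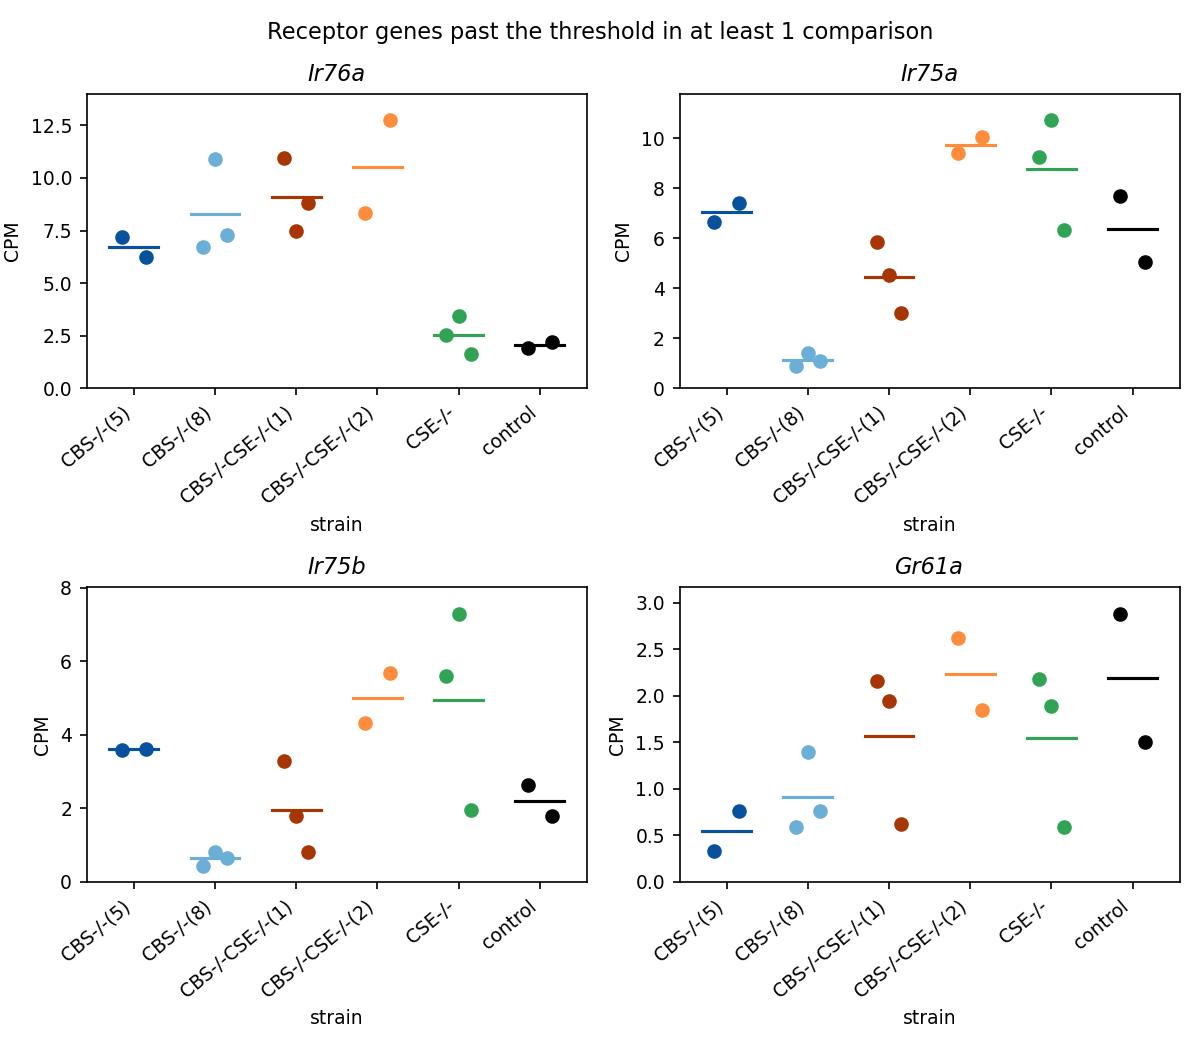
Levels (CPM) of the 4 receptor genes past the threshold in at least 1 comparison, with 1 point per library and a bar at each strain mean, control at the right. Ir76a was higher in all 4 strains lacking CBS, from 6.23 to 12.7 CPM, Ir75a and Ir75b were low in CBS-/-(8), and Gr61a was below 1.5 CPM in all 5 libraries lacking only CBS.

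Gr61a (FBgn0035167, 3L, 841451 to 843701, plus strand) was the only gene called between genotypes among the few sweet receptors with enough counts to test. It had 0.327 and 0.765 CPM in CBS-/-(5), 0.584, 1.39 and 0.759 in CBS-/-(8), 2.16, 1.94 and 0.615 in CBS-/-CSE-/-(1), 2.62 and 1.84 in CBS-/-CSE-/-(2), 2.18, 1.88 and 0.583 in CSE-/-, and 2.88 and 1.503 in the control, from 3 to 41 counts per library. The 5 libraries lacking only CBS were below the control libraries and below the double deletion libraries except CBS-/-CSE-/-(1) replicate 3. In the double deletion strains against the CBS deletion strains it rose (log2 fold change 1.62, SE 0.38, adjusted p = 0.0235). Against the control its log2 fold change was -2.36 in CBS-/-(5) (SE 0.57, adjusted p = 0.0571) and -1.62 in CBS-/-(8) (SE 0.49, adjusted p = 0.0797), neither of which passed, and 0.00 in CBS-/-CSE-/-(2) (SE 0.44). The call between the genotypes was lost without CBS-/-CSE-/-(2) replicate 4 (adjusted p = 0.0593), CBS-/-(5) replicate 3 (0.0523) or CBS-/-(8) replicate 5 (0.0544). The fit between the genotypes pooled the libraries of both strains of each. Its SE and p therefore measure spread between libraries and not between strains. Of the 9 sweet receptors listed, only 3 had enough counts to be tested in each comparison, and none but Gr61a was called. Gr64b, Gr64c, Gr64d and Gr64e had no count in any library. Gr64b and Gr64c have the same annotated span and strand, and Gr64d and Gr64e overlap on the same strand. Reads from these genes may have been left out as ambiguous, so the absence of counts does not show absence of RNA.

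In that comparison of the double deletion with the CBS deletion, which uses no control library, Ir76a was also higher in the double deletion libraries (log2 fold change 0.73, SE 0.19, adjusted p = 0.0289, edgeR). Thus 2 of 21 receptor genes tested rose and none fell, against 27.6% of all 9230 genes called in either direction. The Ir76a call was lost without any of 6 of the 10 libraries (CBS-/-CSE-/-(1) replicate 3, CBS-/-CSE-/-(2) replicate 4, both CBS-/-(5) libraries, and CBS-/-(8) replicates 2 and 5), with adjusted p of 0.0512 to 0.0677. The overlapping gene CG14102 moved the other way (-0.86, adjusted p = 0.0398).

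**Figure D5:**
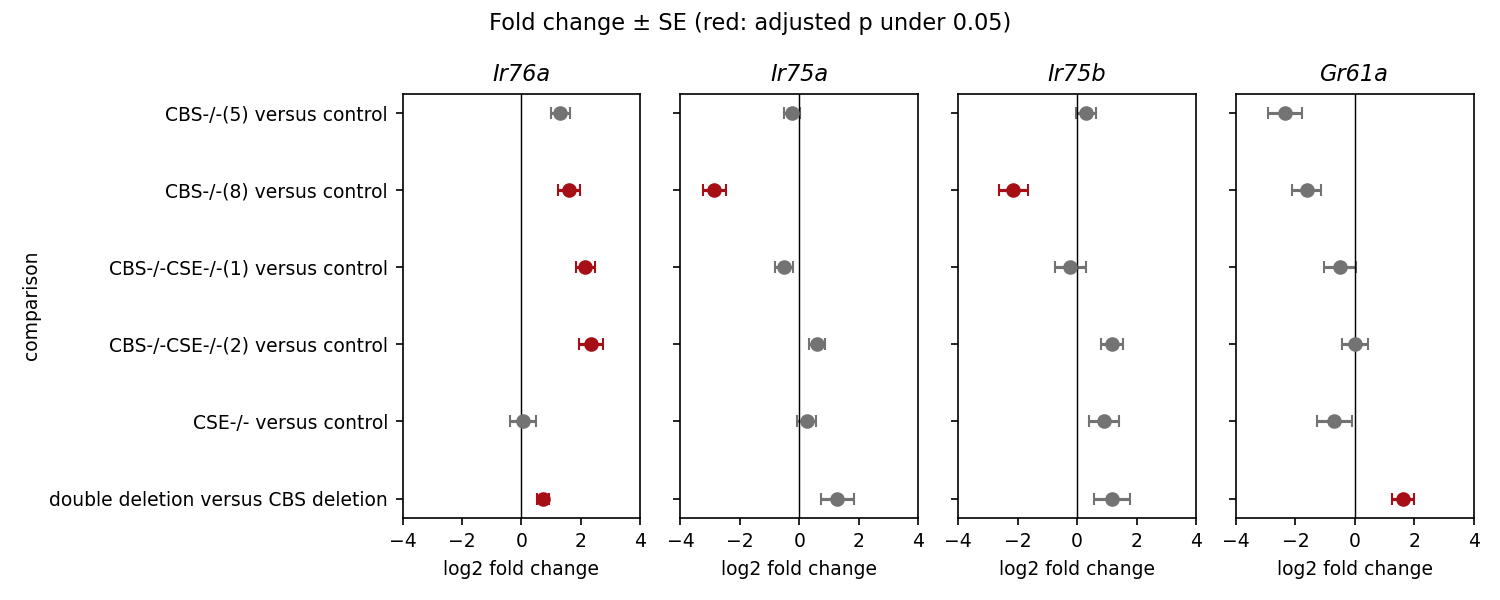
Log2 fold changes ± SE of Ir76a, Ir75a, Ir75b and Gr61a in the 5 comparisons with the control and in the double deletion against the CBS deletion (bottom row), with red points at adjusted p under 0.05. Ir76a was positive in all 4 strains lacking CBS and 0.06 in CSE-/-, and Ir75a and Ir75b were called in CBS-/-(8) alone among the comparisons drawn.

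The choice of control library moved which receptor genes passed the filter, and their fold changes. Without control replicate 1, the control is only the library rich in antennal support RNA, and is assumed to vary like the others. In CBS-/-(5), 29 receptor genes then passed the low-count filter, against 17 with both control libraries. Or47b, Ir64a, Or22b, Or59b and Or47a entered only through that library, where they were high, so lower levels in CBS-/-(5) were largely set by the filter. Their log2 fold changes were -5.81, -3.79, -3.76, -3.63 and -4.23, beside 2.67 for Ir62a. Against that library alone, log2 fold changes in CBS-/-(8) were -2.67 for Ir75a, -2.48 for Ir8a, -2.65 for Or59b and -3.02 for Or22b. Or22b did not pass the filter in CBS-/-(8) with both control libraries kept, so its lower level was largely set by the filter too. Orco was at -2.36 in CBS-/-CSE-/-(2). Without control replicate 3 instead, Ir8a was at 7.06 in CBS-/-(8) and 8.52 in CBS-/-CSE-/-(1), against a remaining control library at 0 counts. The antennal support genes had 103 and 64.8 CPM in CBS-/-(5) and 80.2 and 63.9 CPM in CBS-/-CSE-/-(2), against 883 CPM in control replicate 3. Their part in these fold changes was not tested.

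The 2 double deletion strains did not differ in any receptor gene at the threshold (edgeR), with 38 tested, beside 0.353% of all 9630 genes at that threshold. At an unadjusted p under 0.05 there were 12. The share of all genes at that unadjusted p was not counted, so the 12 cannot be read as a result about receptors. Of these 12, 8 were lower in CBS-/-CSE-/-(2), namely Orco (log2 fold change -1.61, adjusted p = 0.0941), Ir8a, Ir64a, Or22b, Or47a, Or47b, Or59b and Or65a, and 4 were higher, namely Or63a (1.05, adjusted p = 0.167), Ir75a (1.13, adjusted p = 0.192), Ir75b and Ir11a. The support genes had 80.2 and 63.9 CPM in CBS-/-CSE-/-(2) against 212, 706 and 427 CPM in CBS-/-CSE-/-(1), and their part in these differences was not tested.

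Other genes of the sensory system were mostly not called. Of the 10 antennal support genes, 7 to 9 were tested in each comparison and none was called, with medians of -3.22 in CBS-/-(5) and -3.18 in CBS-/-CSE-/-(2) on the log2 scale. Of 9 transcription factors known to set which receptor a neuron makes, 5 or 6 were tested, none was called against the control, and 3 were lower in the double deletion than in the CBS deletion: svp (-0.56, adjusted p = 0.0396), pdm3 (-0.66, adjusted p = 0.0293) and lz (-0.95, adjusted p = 0.0330). In that comparison 27.6% of all genes were called, and of 4 brain neuron markers tested nSyb (-0.91, adjusted p = 0.00651) and brp (-0.998, adjusted p = 0.0352) were lower too, with a list median of -0.74. Their part in the result was not tested. Of 12 genes of ciliated sensory neurons, such as the channel subunits nan and iav and the cilium transport genes, 10 to 12 were tested in each comparison with the control and Oseg5 alone was called, higher in CBS-/-CSE-/-(1) (2.07, adjusted p = 0.0231). In the double deletion against the CBS deletion Oseg5 (1.46, adjusted p = 0.00154) and Oseg4 (0.91, adjusted p = 0.0398) were higher and Rfx, a regulator of cilium genes, was lower (-0.82, adjusted p = 0.0148, edgeR), 3 of 11 tested beside the same 27.6%. Their summed level stayed between 48.8 and 88.0 CPM over all libraries, a 1.80-fold range beside the 15.0-fold range of the antennal support genes.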

How the data were processed

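RNA was taken from heads of naive males, about 100 per replicate, and sequenced after a directional polyA library preparation. The authors deposited raw counts per gene for each library. The submitters' processing notes name Trimmomatic, STAR, SAMtools and featureCounts, without versions, and the strand setting, multimapping rule and annotation release are not given in the sources used here. Lines that name no gene were left out. Ambiguous reads, kept in such lines, came to 5.12% to 8.27% of the reads listed in each file. Symbols, coordinates and exon lengths came from the Ensembl BDGP6 annotation, which names 17179 of the 17453 identifiers. Of the 186 receptor genes, 13 overlap another gene on the same strand and 23 on the opposite strand, and 8 and 7 of the 26 genes without counts are among them.

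CPM were counts scaled by the counted reads of the library. Each strain was compared with the control, and both double deletion strains with both CBS deletion strains, in its own edgeR 4.0.16 quasi-likelihood fit (R 4.3.3) of all genes with TMM scaling and filterByExpr. Calls were made at a Benjamini-Hochberg adjusted p under 0.05 over all genes tested. Alternatives were RLE scaling, DESeq2 1.42.0, other count filters, 1 fit of all libraries, thinned counts, each library left out, and the replicate number as a block. The direct fits of strain pairs, the antennal support covariate and the correlations (log2(CPM + 0.5) for receptors, 100000 permutations, two-sided, scipy 1.17.1) were added after the data were seen. In simulated counts with 200 genes changed by 2 on the log2 scale, the fit of CBS-/-(8) against the control recovered 96% of them over 9229 genes, with 7.25% of its calls false, and that of CBS-/-(5) recovered 93% over 9091 genes, with 4.12% false. The simulation gave every gene the same fixed dispersion, not one estimated from these libraries, and drew the changed genes from all that passed the filter. It therefore does not give the recovery for low-count or variable receptor genes. The labels call the replicates biological, each from its own collection of heads.

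The receptor genes and lists were chosen with earlier results of these data known. Genes were named if they were 1 of 5 co-receptors, among the 10 of highest mean CPM, called in a comparison (at most 20), among the 4 of highest mean CPM in a functional list, or at most 3 counts in each library of 1 strain and at least 10 in each of another. Ir64a, Ir11a, Ir75c, Cln3, CG14102, SREBP and Oseg5 were named after their values were seen where they fell outside this rule.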

Additional observations from a re-analysis of the deposited data

Results flagged for a closer look

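Among the 16 groups of 5 libraries examined for outlying values, 2 held a library far from the rest, and chance flags about 1 in 20 such groups. Orco was low in CBS-/-(5) replicate 3, at 15.9 CPM, against 36.7 CPM in the nearest of the other 4 CBS deletion libraries. Ir76a was high in CBS-/-(8) replicate 2, at 10.9 CPM, against 7.27 CPM in the nearest. The strains of the CBS deletion differed by direct test (edgeR) in Ir75a, with a log2 fold change of -2.57 in CBS-/-(8) against CBS-/-(5), and in Ir75b, with -2.41.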

How the results depend on the processing

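With at least 10 counts in every library of a strain required, 15 receptor genes were detected in CBS-/-(5), 13 in CBS-/-(8), 16 in CBS-/-CSE-/-(1), 24 in CBS-/-CSE-/-(2), 17 in CSE-/- and 12 in the control, and thinning left 22 each in CBS-/-CSE-/-(1), CBS-/-CSE-/-(2) and CSE-/-. The number of receptor genes called in CBS-/-(5), 0 as reported, was 1 with at least 10 counts in every library, 1 with edgeR's legacy setting off (Ir76a in both) and 1 in thinned counts (Gr61a). In CBS-/-(8), 7 of 132 receptor genes tested were called with no low-count filter, beside 717 lower and 395 higher of 13125 genes. With at least 10 counts in every library it was 1 of 7, beside 380 and 120 of 8369. With the antennal support covariate it was 5 of 48, beside 538 and 282 of 9927. In CBS-/-CSE-/-(2), 4 of 130 were called with no filter, beside 545 and 429 of 13163. In the double deletion against the CBS deletion, at least 10 counts in every library gave 1 of 10. Of 8350 genes, 1505 were lower and 1377 higher there. In 1 fit of all 15 libraries it was 4 of 48, beside 606 and 864 of 9927. With strains as 4 groups it was 4 of 38, beside 1027 and 1243 of 9740. With the covariate it was 5 of 48, beside 621 and 777 of 9927. With 1 library left out, the counts ran from 0 to 6 in CBS-/-(5), 2 to 4 in CBS-/-(8), 0 to 2 in CBS-/-CSE-/-(1), 0 to 2 in CBS-/-CSE-/-(2), 0 to 1 in CSE-/- and 0 to 2 between the genotypes. TMM scaling moved the Or sum to 61.6 CPM in CBS-/-(8) and 48.0 in CBS-/-CSE-/-(2), the Ir sum to 58.1 in CBS-/-CSE-/-(2) and 48.8 in the control, and the Gr sum to 19.97 in the control. With a replicate block, 2 of 17 receptor genes tested were called in CBS-/-(5) (Ir76a, adjusted p = 0.0404, and Gr61a, 0.0171, edgeR). Of 9206 genes, 977 were lower and 495 higher there. In CSE-/- it was 1 of 25 (Ir93a, adjusted p = 0.0334), beside 170 and 34 of 9293. Between the genotypes it was 0 of 21, beside 21 and 26 of 9281. Replicate numbers are only labels here, and same-numbered libraries deviated together with a mean r of -0.24 to 0.302 over the comparisons. CBS-/-(8) and CBS-/-CSE-/-(2) share fewer than 2 replicate numbers with the control, so no block could be fitted there. Where a value moved, the cause was not tested beyond the smaller number of genes or libraries. Genes under 3 counts cannot be compared at this depth.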
